A study of Drosophila melanogaster with 2 samples.

Results

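The microRNA genes of Drosophila melanogaster were examined in chromatin immunoprecipitation followed by sequencing (ChIP-seq) of the fusion protein Pum-GFP. They were chosen by symbol alone, as every annotated gene whose symbol starts with mir-, which includes bantam (mir-ban) and let-7 (mir-let7). The rule gave 262 genes. Of these, 260 lay on the 6 chromosome arms with peaks, among 17683 annotated genes there, and the other two, mir-10404-1 and mir-10404-2, lay on separate ribosomal DNA sequence and were not measured. The samples were 2 replicates, numbered 2 and 3, of whole embryos of mixed sex aged 0 to 24 h from the strain Pum-MiMIC-GFP, in which an exon for eGFP placed in an intron of pum produces the fusion. Chromatin was sonicated to 200 to 800 bp and precipitated with an antibody to GFP. Both replicates form 1 group, so no condition was compared, and an untagged strain was not analysed here. Nothing in the labels ties the fusion to 1 tissue, and all embryonic cell types and a day of stages were mixed, so that a strong peak in few cells and a weak peak in many cannot be told apart.

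MicroRNAs are short RNAs that pair through their seed, bases 2 to 8, with messenger RNAs and lower their translation and stability. A primary transcript, made from a promoter of its own or from that of a host gene, is cut to a hairpin and then to the mature product, so the annotated microRNA gene is the hairpin and its transcription can start kilobases away. Pumilio (Pum) is known as an RNA-binding protein that represses the messenger RNAs it binds, and in this experiment it was the chromatin near the tagged protein that was recovered. A peak near a hairpin therefore gives a place on DNA, not an effect on the microRNA.

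The mature products of the loci on which the results turn are printed first, from RefSeq (Release 6, the same assembly as dm6), with the seed in capitals; 5p and 3p give the side of the hairpin. The products of mir-279 and mir-996, neighbours on 1 primary transcript, share a seed. So do those of mir-92a and mir-92b, in the gene jigr1. The other products shown have seeds that they share with few or no other Drosophila microRNAs.
mir-279-3p: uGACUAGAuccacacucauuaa
mir-996-3p: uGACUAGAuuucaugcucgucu
mir-92a-3p: cAUUGCACuugucccggccuau
mir-92b-3p: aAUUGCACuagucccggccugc
mir-995-3p: uAGCACCAcaugauucggcuu
mir-ban-3p: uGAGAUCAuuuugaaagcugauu
mir-282-5p: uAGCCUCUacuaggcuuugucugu
mir-375-3p: uUUGUUCGuuuggcuuaaguua
mir-275-3p: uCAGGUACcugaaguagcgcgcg
mir-305-5p: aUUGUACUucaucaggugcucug
mir-277-3p: uAAAUGCAcuaucugguacgaca
mir-34-5p: uGGCAGUGugguuagcugguugug
mir-let7-5p: uGAGGUAGuagguuguauagu

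The bases under 5 summits, the highest points of peaks, are shown from the RefSeq genome of the same build. The first 2 are the strongest beside the starts of non-coding primary transcripts, and the other 3 hold searched motifs. Capitals mark the summit base and every searched motif: TATCGATA (the DRE element) at mir-995, GGTCACACT (the Ohler 1 core promoter motif, here on the minus strand as AGTGTGACC) at mir-275, and at mir-2492 both TGTATATA, a match to the Pumilio RNA element TGTANATA, and GAGAG (bound by GAGA factor, here as CTCTC). Each window reaches 100 bp to either side of the summit, except that of mir-995, which stops before the first transcribed base of Cdk2.
mir-279 summit, plus strand of chr3R:29214350-29214550: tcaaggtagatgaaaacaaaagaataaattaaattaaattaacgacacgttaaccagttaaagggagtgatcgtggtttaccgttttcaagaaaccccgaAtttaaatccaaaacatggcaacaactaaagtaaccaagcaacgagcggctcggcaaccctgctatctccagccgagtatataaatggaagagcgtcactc
mir-282 summit, plus strand of chr3L:3250176-3250376: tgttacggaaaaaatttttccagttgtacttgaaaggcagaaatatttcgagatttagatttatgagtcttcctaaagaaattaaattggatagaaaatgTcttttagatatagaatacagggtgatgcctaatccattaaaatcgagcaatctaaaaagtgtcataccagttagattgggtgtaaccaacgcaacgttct
mir-995 summit, plus strand of chr3R:20735484-20735622: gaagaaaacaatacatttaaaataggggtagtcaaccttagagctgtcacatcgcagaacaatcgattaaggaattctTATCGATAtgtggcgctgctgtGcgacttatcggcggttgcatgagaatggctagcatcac
mir-275 summit, plus strand of chr2L:7426579-7426779: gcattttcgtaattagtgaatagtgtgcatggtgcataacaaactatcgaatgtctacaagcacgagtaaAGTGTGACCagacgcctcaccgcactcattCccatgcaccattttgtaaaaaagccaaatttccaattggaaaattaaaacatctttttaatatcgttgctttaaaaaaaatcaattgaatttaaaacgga
mir-2492 summit, plus strand of chrX:11548793-11548993: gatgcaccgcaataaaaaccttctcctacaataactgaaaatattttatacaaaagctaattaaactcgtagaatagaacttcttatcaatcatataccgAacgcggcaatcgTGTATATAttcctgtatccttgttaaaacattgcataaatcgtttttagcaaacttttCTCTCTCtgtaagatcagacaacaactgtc

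Few microRNA genes lay close to a reproducible peak. In the optimal list, the authors' set cut at their reproducibility threshold, 6 of 260 microRNA genes had a summit within 500 bp of the hairpin (2.31%, exact 95% Clopper-Pearson interval 0.851 to 4.95%). The same distance from the start held a summit for 14.4% of the 17423 other annotated genes and covered 2.82% of all bases on the 6 arms. The count was 10 with the strongest 3816 summits of replicate 3 alone and 3 with the stronger 50% of optimal summits. Measured from the start of the hairpin in place of its nearest edge, 5 microRNA genes (1.92%) had one. The share of microRNA genes thus lay below that of other gene starts, and its interval held the share of bases.

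Within 2000 bp, 24 microRNA genes had an optimal summit (9.23%, interval 6 to 13.4%), against 22.9% of other gene starts and 10.1% of bases. The interval again held the share of bases and lay below that of gene starts. At longer distances the shares of microRNA genes and of gene starts came together: within 5000 bp the shares were 30.4% of microRNA genes, 36.5% of other gene starts and 21.5% of bases, and within 10000 bp they were 53.5%, 52.7% and 35%. The median distance to the nearest optimal summit was 9065 bp for microRNA genes, 8896 bp for other gene starts and 18766 bp for bases. These intervals cover counting error and treat genes as independent, which neighbours in a cluster are not.

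**Figure D1:**
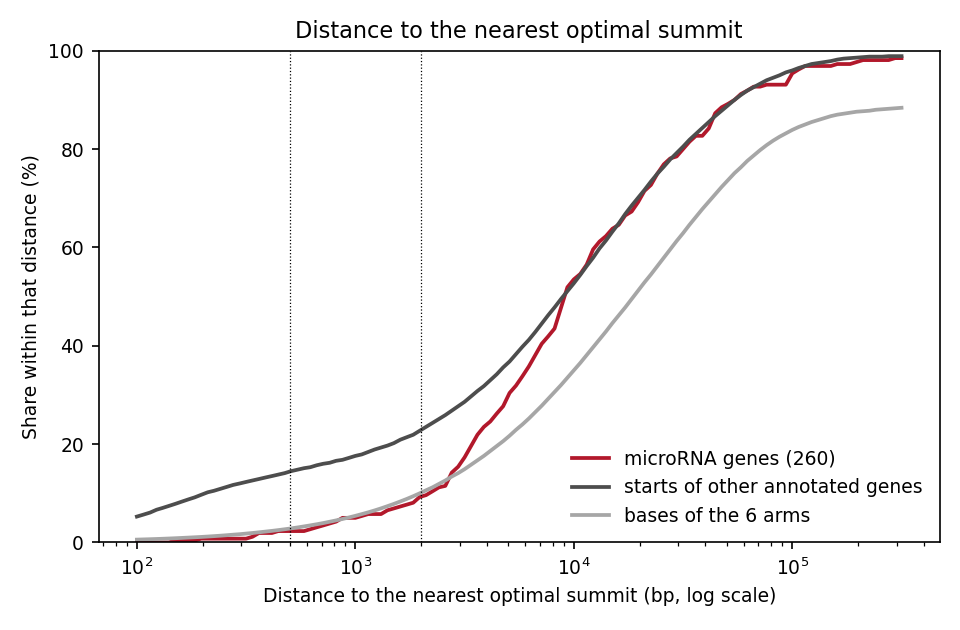
Share (%, y axis) of microRNA genes, of other gene starts and of bases whose nearest optimal summit lies within the distance on the x axis (bp, log scale), with dotted lines at 500 and 2000 bp. The microRNA genes run with the bases up to 2000 bp and with the other gene starts from about 10000 bp.

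In the longer lists, too, the share of microRNA genes at 500 bp lay below that of other gene starts, but it was above that of bases. The pooled list of 26275 peaks was called on both replicates together, was not cut at the threshold and takes in background regions. In it, 61 microRNA genes (23.5%) had a summit within 500 bp, against 41.1% of other gene starts and 17.5% of bases. In the list of replicate 2 there were 56 (21.5%, against 38.5% of other gene starts and 20.3% of bases). In that of replicate 3 there were 64 (24.6%, against 46.5% and 19.2%). The intervals of the microRNA genes lay above the share of bases in the pooled list and in replicate 3, and held it in replicate 2. Most of these pooled summits were weak: the median strongest pooled signal of the 61 genes was 34.8. The median of the whole pooled list was 33.8, and the lowest signal in the optimal list was 80.4. Of the 260 genes, 30 had a summit within 500 bp in both replicate lists and 170 had one in neither. The matching shares of other gene starts and of bases were not worked out, so these counts cannot be read as particular to microRNA genes. Within 2000 bp the pooled list had a summit for 63.5% of microRNA genes, 67.2% of other gene starts and 46.8% of bases. The shares were 65.8%, 70.7% and 55.1% in replicate 2, and 61.9%, 68.6% and 46.3% in replicate 3. In all 3 of these lists the interval of the microRNA genes lay above the share of bases, which it had held in the optimal list. The replicate lists hold 30000 peaks each and take in background regions, per the file headers, so most microRNA genes met some summit within 2000 bp there, as most genes did.

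**Figure D2:**
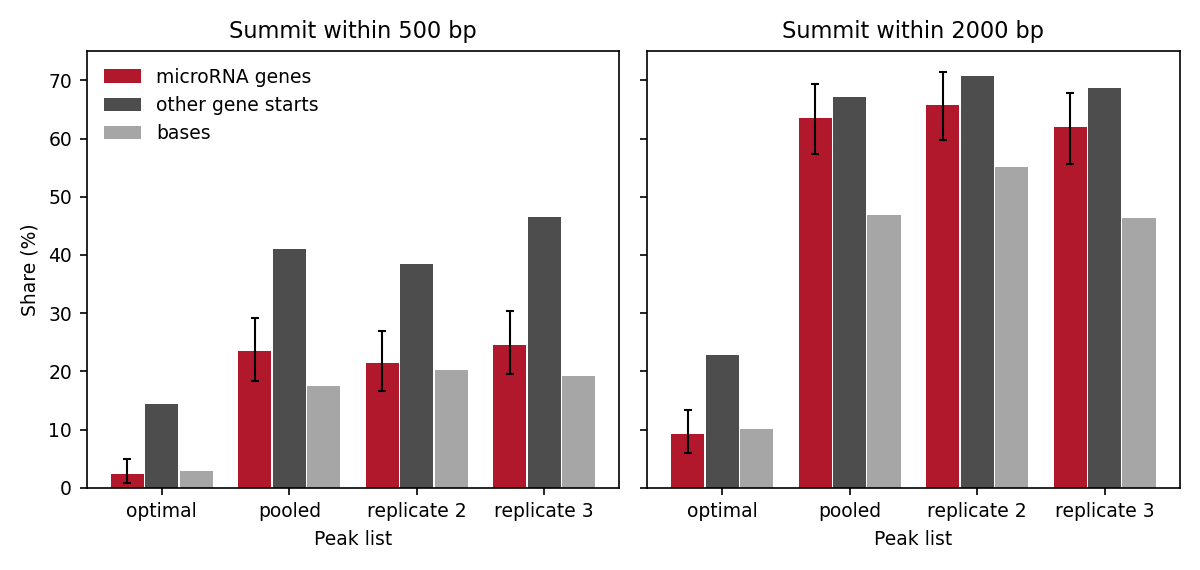
Share (%, y axis) of microRNA genes, of other gene starts and of bases with a summit within 500 bp (left) or 2000 bp (right) in each peak list; error bars on the microRNA genes are exact 95% intervals. At 500 bp the bars for microRNA genes are lower than those for other gene starts in all 4 lists, from 2.31% against 14.4% in the optimal list to 24.6% against 46.5% in replicate 3.

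All 6 microRNA genes with an optimal summit within 500 bp lay inside protein-coding genes. The gene mir-2491 was nearest, with the summit 142 bp upstream in an intron of fog, which encodes a secreted signal of gastrulation. Next were mir-9378 (185 bp upstream, in an intron of CG17124), mir-9377 (328 bp downstream, in an intron of Tis11, which encodes a zinc-finger protein that binds AU-rich messenger RNAs) and mir-995 (339 bp upstream, in Cdk2, a cell cycle kinase). The last were mir-4949 (345 bp upstream) and mir-92a (431 bp downstream, in jigr1). The hairpin of mir-4949 lies in an exon of ATPsynC, which encodes a subunit of the mitochondrial ATP synthase. Its summit lay outside that gene, 87 bp before a start of ATPsynC. Just outside the 500 bp limit were mir-2496 at 594 bp and mir-305 at 635 bp. The limit of 2000 bp fell between mir-1012 at 1958 bp and mir-992 at 2085 bp.

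Of these 6, mir-92a had the summit with the highest pooled signal. At mir-92a (chr3R:25646506-25646600, plus strand), a microRNA known to act in neural stem cells, the signal was 363 in replicate 2, 139 in replicate 3 and 493 in the pooled data. That placed it at rank 93, 414 and 164. The summit lay 215 bp before an internal start of jigr1 and downstream of the hairpin, between mir-92a and mir-92b. At mir-9378 (chr2L:10751877-10751938, minus strand) the replicates ordered differently, with 76.6 (rank 1998) in replicate 2 against 170 (rank 270) in replicate 3 and 249 in the pooled data (rank 716). In replicate 3 this summit was stronger than that of mir-92a.

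The other 4 of the 6 were near or below the middle of the list. The median signal of all 3816 optimal summits was 136, on a range of 80.4 to 2369. The summit near mir-9377 (chrX:12665217-12665268) had a pooled signal of 140 (86.1 in replicate 2 and 56.6 in replicate 3), and a second, stronger summit of 245 lay 1312 bp away in the same gene. The summits of mir-2491, mir-4949 and mir-995 had pooled signals of 121, 102 and 81. The summit at mir-995 (chr3R:20735923-20736012), 39 bp before the start of Cdk2, ranked 3925 of 3970 and had a signal of 35.6 in replicate 2 and 47.4 in replicate 3; its window is the one printed with a DRE element.

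**Figure D3:**
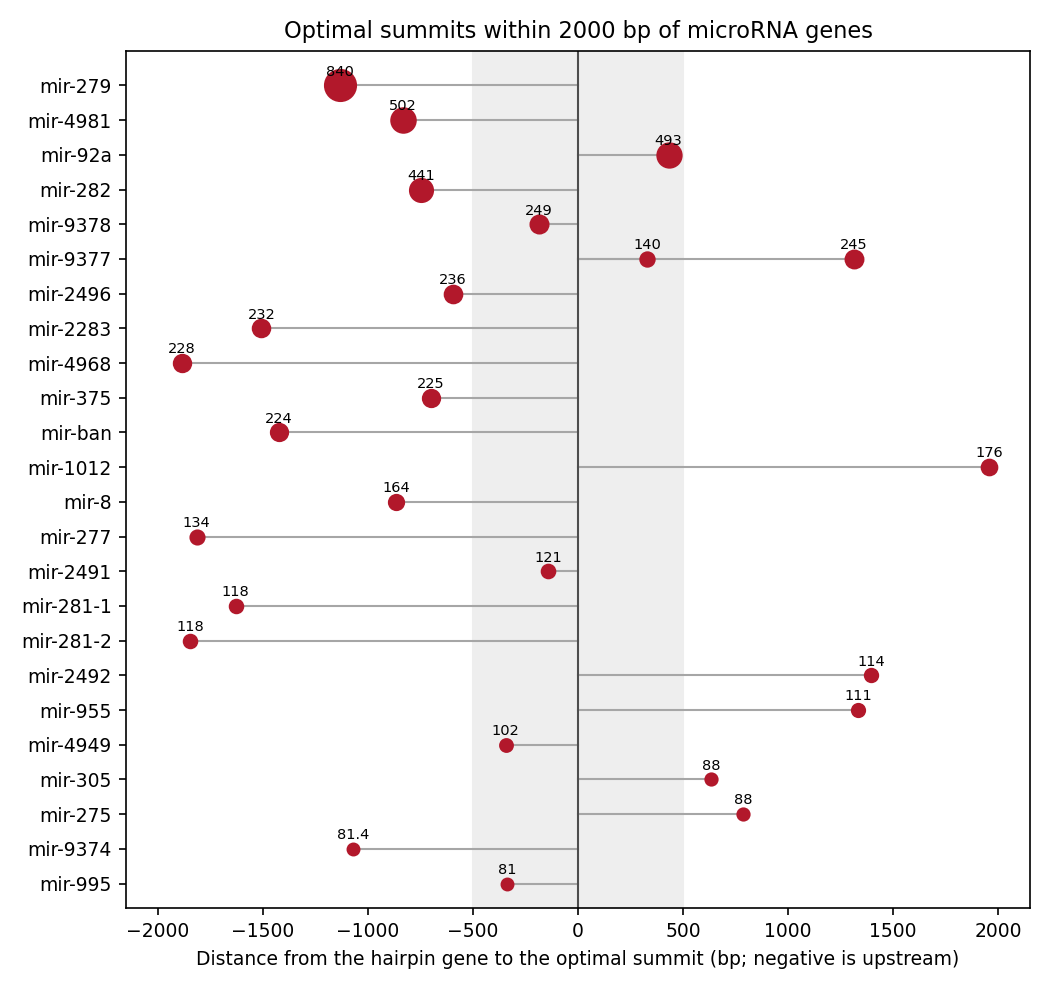
Optimal summits within 2000 bp of the 24 microRNA genes, 1 row per gene, by distance in bp from the hairpin (x axis, negative is upstream); point size and the printed number give the pooled signal, and grey marks 500 bp. The strongest summits, from 840 at mir-279 to 441 at mir-282, lie beside the 4 genes at the top, and 3 of these 4 are upstream.

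Across the 24 genes within 2000 bp there were 23 distinct summits, and 17 genes had the nearest one upstream of the hairpin against 7 downstream. Neighbours that share a summit were each counted. The split was not worked out for the remaining microRNA genes or for other gene starts, so no preference can be read from it. None of the 23 summits lay inside a hairpin. The median signal was 176, on a range of 81 to 840, against 136 over all optimal summits, and 14 of the 23 were in the stronger 50% of the list. A summit in the strongest 3816 of both replicate lists stood within 100 bp of 18 of the 23, against 69.2% of all optimal summits. Of the other 5, 3 had one in replicate 2 only, 1 in replicate 3 only and 1 (at mir-9374) in neither.

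**Figure D4:**
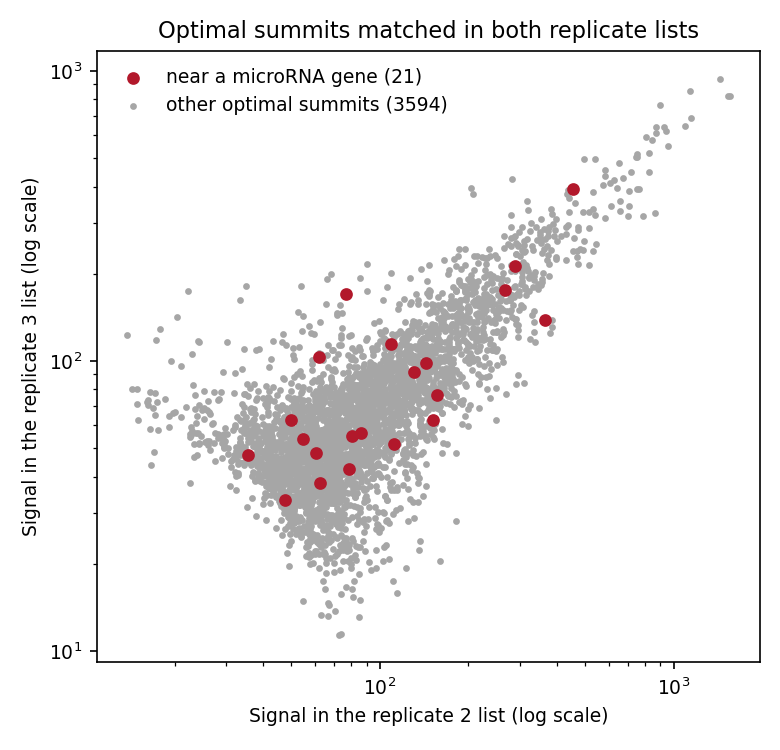
Signal in the replicate 2 list (x axis) and in the replicate 3 list (y axis), both on log scales, for optimal summits with a summit within 100 bp in both lists; each point is 1 summit, coloured by whether a microRNA gene lies within 2000 bp. The summits near microRNA genes spread through the cloud, with mir-279 highest at 454 and 392.

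Among loci with a non-coding primary transcript of their own, the summits ran from the strongest of the set to some of the weakest. The strongest summit beside any microRNA gene was that of mir-279 (chr3R:29215585-29215684, plus strand), which is known to stop the formation of carbon dioxide-sensing neurons and to dampen JAK/STAT signalling in border cells. Its signal was 454 in replicate 2 (rank 61), 392 in replicate 3 (rank 33) and 840 in the pooled data (rank 45 of 3970). Both replicates thus placed it among their strongest peaks. The summit stood 112 bp before the single annotated start of lncRNA:CR31044, the primary transcript of mir-279 and mir-996, so mir-996, which has the same seed, lay 2734 bp from it. The printed window ends before that start.

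The summit at mir-282 (chr3L:3251022-3251118, plus strand) had a signal of 266 in replicate 2, 176 in replicate 3 and 441 in the pooled data (rank 210). It lay inside lncRNA:CR43626, 318 bp before the last of its 3 starts and 746 bp before the hairpin. At mir-375 (chr2L:857542-857632, plus strand) the signal was 152 in replicate 2 and 62.8 in replicate 3, with 225 in the pooled data, and the summit lay 562 bp before the start of lncRNA:CR45345, just past the 500 bp limit for a start. Each of these 2 hairpins had 1 optimal summit within 2000 bp.

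Several optimal summits lay in or around the transcripts of bantam and mir-8, as around that of mir-279, where a summit of 291 stood just past the end. Bantam (chr3L:642208-642288, plus strand) promotes growth and blocks cell death by repressing hid. Its nearest summit, 1425 bp upstream, had a signal of 131 in replicate 2, 91.8 in replicate 3 and 224 in the pooled data, and stood 1069 bp past an internal start of lncRNA:CR43334. Stronger optimal summits lay farther off, of 345 and 441 inside the transcript, 5319 and 6355 bp from its first start, and of 361 just past its end. None of these was within 500 bp of an annotated start of that transcript.

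The gene mir-8 (chr2R:16831432-16831518, plus strand), the fly member of the mir-200 family and a regulator of growth, had its nearest summit 867 bp upstream, 124 bp before the inner of the 2 starts of lncRNA:CR43650. The signal there was 61.8 in replicate 2, 103 in replicate 3 and 164 in the pooled data. A summit of 234 lay 718 bp before the outer start. The pooled list added one 150 bp before the hairpin with a signal of 78.8 (43.1 in replicate 2 and 37.4 in replicate 3), which ranked 4092 and so fell just short of the optimal list.

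The cluster of mir-277 and mir-34 had a weaker summit within its transcript. The microRNA of mir-277 controls branched-chain amino acid breakdown, and that of mir-34 acts in ageing and neuroprotection. The summit 1816 bp before mir-277 (chr3R:10100022-10100121, plus strand) had a signal of 80.4 in replicate 2, 55.4 in replicate 3 and 134 in the pooled data, and lay 4445 bp into lncRNA:CR43459. No optimal summit stood within 500 bp of the annotated start. A pooled summit 115 bp before mir-34 had a signal of 63.8, with 44 in replicate 2 and 20.7 in replicate 3.

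The pair mir-275 and mir-305, the second of which acts in intestinal stem cells, had its nearest optimal summit downstream, 787 and 635 bp away. That summit stood 187 bp before the start of muc, a neighbouring gene, and had a signal of 47.6 in replicate 2, 33.1 in replicate 3 and 88 in the pooled data, low in the optimal list (rank 3530). Its printed window holds GGTCACACT. Upstream of mir-275 the pooled list had a summit of 60.7 at 435 bp (40.4 and 19.5 in replicates 2 and 3). The duplicated genes mir-281-1 and mir-281-2 shared a summit of 118, found 1629 and 1847 bp upstream and 385 bp before a start of asRNA:CR46194.

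Other summits within 2000 bp belonged to places where the start of another gene was close or where none was. Of the 23 summits, 12 had a start of an annotated gene other than a microRNA gene within 500 bp. The matching share of all optimal summits was not worked out, so this count cannot be read as particular to these summits. The summit at mir-2283 (signal 232) was 10 bp from the shared start of its hosts CG8176 and Kdm3, a histone demethylase gene. The summit 1332 bp downstream of mir-955 (signal 111) was 485 bp past the start of CG14968. The summit 1070 bp from mir-9374 was 19 bp before Hr39, which encodes a nuclear receptor, but had a signal of only 81.4, with 32 in replicate 3 and no peak within 100 bp in replicate 2. More than 500 bp from any start of their own host were, among others, those of mir-1012 in Lerp (176), mir-4968 in Mob2 (228) and mir-2492 in Drak (114). The summit at mir-4968 was 1466 bp before a start of Mob2. The second strongest summit beside a microRNA gene had a signal of 502 in the pooled data, 288 in replicate 2 and 213 in replicate 3. It lay 835 bp upstream of mir-4981, which is in no other gene on its strand. The start of CG14762 was nearer, with the summit 659 bp before it.

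At mir-2496 (chrX:2010300-2010417, plus strand) the replicates placed the peak differently. Replicate 2 had a summit of 149 that matched the optimal summit of 236, and replicate 3 had no summit within 100 bp of it. Replicate 3 had instead a summit of 89.8 at rank 970, only 443 bp from the gene, where the pooled signal was 119. The optimal list holds that summit too; it was dropped here because a stronger one lay within 250 bp, and with every optimal peak kept the count within 500 bp was 7.

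**Figure D5:**
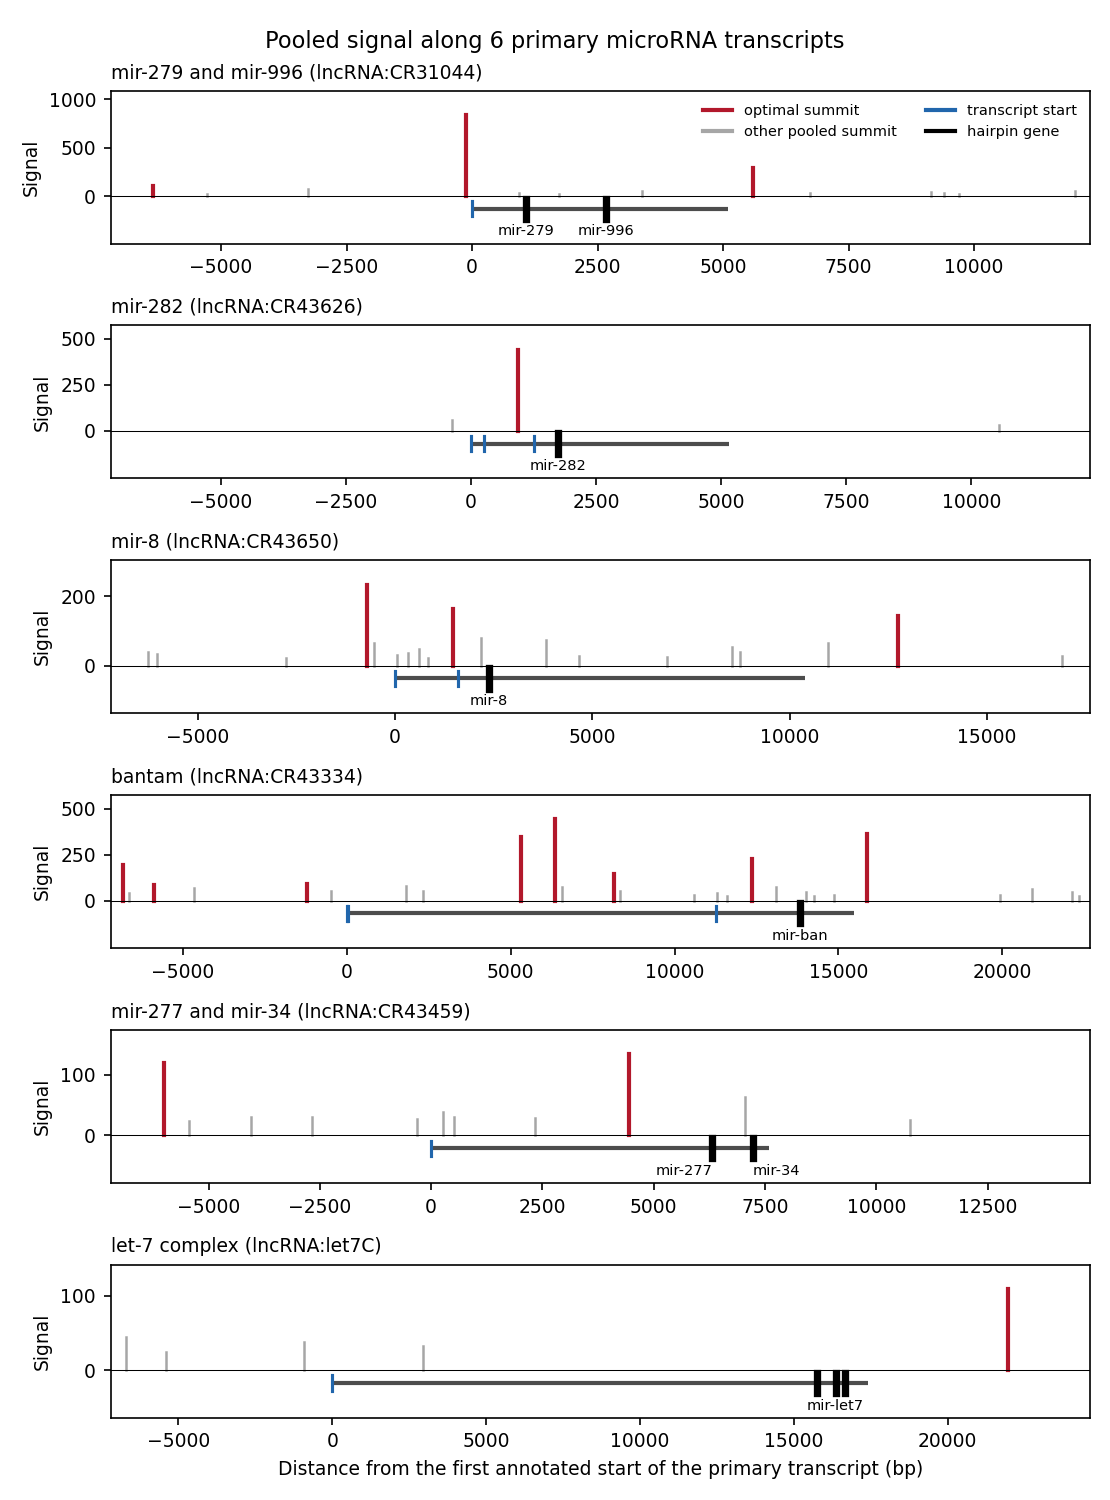
Pooled signal (y axis) of optimal summits (red) and of other pooled summits (grey) along 6 primary microRNA transcripts, by distance in bp from the first annotated start (x axis; the y axes differ); grey bars are transcripts, blue ticks starts and black bars hairpins. The summit of 840 stands at the start of the mir-279 transcript, whereas the start of the let-7 transcript has no optimal summit and its nearest one, of 109, lies past the end.

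Among 32 microRNA genes with well-known roles, named without regard to distance, 0 had an optimal summit within 500 bp, 6 had one within 2000 bp (bantam, mir-8, mir-275, mir-277, mir-279 and mir-305), and 24 had one within 10000 bp. Over all microRNA genes the shares at these distances were 2.31%, 9.23% and 53.5%, and over other gene starts 14.4%, 22.9% and 52.7%. Their median distance was 5839 bp, against 9065 bp over all microRNA genes. Several of the 32 are neighbours in a cluster that share their nearest summit, so these genes are not independent. The developmental timer let-7 (chr2L:18472034-18472111, plus strand), with mir-100 and mir-125 on the same transcript, lay 5237 to 6128 bp from a summit of 109 that had a signal of 60.4 in replicate 2 and no match within 100 bp in replicate 3. Regulators of sensory organs (mir-9a, 4330 bp) and photoreceptors (mir-7, 4836 bp) were at like distances. Far from any optimal summit were the muscle microRNA mir-1 (39708 bp), the neural mir-124 (52052 bp), mir-10 of the Antennapedia complex (46508 bp) and mir-276a (153819 bp). The Hox microRNAs mir-iab-4 and mir-iab-8, read from opposite strands of 1 hairpin, were 13062 bp away.

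At mir-14, which restrains cell death and fat storage, the pooled summit lay inside the hairpin itself. Its signal was 65.6 (rank 5112), with 45.5 in replicate 2, and in replicate 3 a summit of 44.5 lay 188 bp away. Neither reached the optimal list, in which the nearest summit was 6577 bp off. The genes mir-309, whose cluster clears maternal messenger RNAs, and mir-310 were 8136 and 3650 bp from their nearest optimal summits. Both lie in clusters of 5 or more genes, and 0 of the 5 such clusters had an optimal summit within 2000 bp.

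Grouped by locus, microRNA genes closer than 10000 bp to each other formed 198 loci, of which 27 held 2 or more genes. An optimal summit lay within 2000 bp of a member in 22 loci (11.1%), in 6 of the 27 with several genes (22.2%) and in 16 of the 171 with 1 gene (9.36%). A locus of several genes covers more bases, and this was not adjusted for. The 6 were mir-275 with mir-305, mir-4970 with mir-9378, the mir-281 pair, mir-317 with mir-277 and mir-34, mir-92a with mir-92b, and mir-279 with mir-996. In 4 of these loci, only 1 of the members was within 2000 bp.

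Families defined by a shared seed were set beside the same distances. The largest family, with the seed AUCACAG of mir-2, mir-6, mir-11 and mir-13, has 14 genes, several of which repress the cell death genes of the fly. Of these 0 were within 2000 bp, and the nearest was mir-2b-2 at 2660 bp. All 6 genes with the seed AUUGCAC (mir-92a, mir-92b and mir-310 to mir-313) were within 5000 bp of a summit, though only mir-92a was within 2000 bp. These 6 lie in the mir-92a locus and the mir-310 cluster only. Among all microRNA genes, the shares within 2000 and 5000 bp were 9.23% and 30.4%. Among other gene starts they were 22.9% and 36.5%. Of the 3 genes with the seed GACUAGA, mir-279 was at 1135 bp, mir-996 at 2734 bp and mir-286, in the mir-309 cluster, at 8389 bp. The families were looked up after the values had been seen, and members of a cluster share a place in the genome.

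The hairpins were also divided by what they lay in. Of the 136 microRNA genes inside protein-coding genes on their strand, 6 (4.41%) had an optimal summit within 500 bp and 13 (9.56%) within 2000 bp. Of the 46 inside only a non-coding RNA gene, 43 of them in its exons, 0 had one within 500 bp and 7 (15.2%) within 2000 bp. Of the 78 inside no other gene, 0 had one within 500 bp and 4 (5.13%) within 2000 bp. The median distances were 8508, 8854 and 13334 bp. By arm, the genes within 2000 bp numbered 5 of 56 on 2L, 4 of 55 on 2R, 4 of 31 on 3L, 7 of 58 on 3R, 0 of 2 on 4 and 4 of 58 on X. In the same order, these arms held 716, 695, 736, 913, 13 and 743 optimal summits. Shares of other genes and of bases were not worked out by class or by arm. These small counts therefore cannot be read as differences between classes or arms of microRNA genes.

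Host genes were examined at all their annotated starts. Where an intronic or exonic hairpin is transcribed from a host start, that start must lie upstream of it. Summits at host starts downstream of the hairpin were counted too. The 182 microRNA genes inside another gene on their strand had 165 hosts, of which 41 (24.8%) had an optimal summit within 500 bp of an annotated transcript start. Of 128 protein-coding hosts, 37 had one (28.9%, exact 95% interval 21.2 to 37.6%), against 18.6% of the 13817 protein-coding genes that hold no microRNA gene. Of 37 non-coding hosts, 4 had one (10.8%, interval 3.03 to 25.4%), against 5.64% of 2483 other non-coding RNA genes. Hosts that overlap can share a summit: the 41 hosts rested on 38 distinct strongest summits.

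Hosts also have more starts and are longer than other genes, and the share with a summit rose with the number of starts. Protein-coding hosts had a median of 2 starts and 14094 bp, against 1 start and 2147 bp in other protein-coding genes. With 1 annotated start, 14.3% of protein-coding hosts and 14.5% of other protein-coding genes had a summit. With 2 to 3 starts the shares were 36.5% and 27.9%, and with 4 or more starts they were 50% and 45.7%. Gene length within these classes was not tested.

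The hosts named here were chosen after their values had been seen. After lncRNA:CR31044 (840), the strongest summits at a host's start were at for, PAPLA1 and spi. The gene for, which encodes a cGMP-dependent kinase of foraging behaviour and holds mir-4972, had a summit of 547. PAPLA1, a phospholipase gene that holds mir-4984, had one of 524. The gene spi, which encodes the EGF receptor ligand Spitz and holds mir-2a-1, mir-2a-2 and mir-2b-2, had one of 520, 179 bp before a start. These hairpins were not themselves close to a summit: mir-4972 lay 4454 bp away and mir-2b-2, the nearest of those in spi, 2660 bp. Further hosts with a summit were jigr1 (493), lncRNA:CR43626 (441), CG5953 (413), bun (385, with mir-967), MRP (338) and tacc (318, with mir-9384). In for and tacc the summit stood at a start downstream of the hairpin, and in jigr1 at a start downstream of mir-92a.

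Further hosts had summits that ranged more widely in signal. HnRNP-K, the host of mir-7, had one of 89.7, which lay 61 bp before a start and 3650 bp from mir-310. Sxl, the switch gene of sex determination and the host of mir-4956, had one of 137. Btk, a tyrosine kinase gene that holds mir-2b-1, had one of 80.6, and Nrx-1, which encodes neurexin and holds mir-4952, had one of 288. All of these values lie within the range of 80.4 to 2369 over all optimal summits.

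The sequence under the summits near microRNA genes held the searched motifs at low counts. TGTANATA, on either strand within 100 bp of the summit, was in 1 of 23 windows (4.35%), the one at mir-2492, against 9.17% of all 3816 optimal windows. TATCGATA was in 1 (4.35%, against 4.51%), CAGGTA (the Zelda motif) in 0 (against 4.09%), GAGAG in 7 (30.4%, against 22.5%) and GGTCACACT, at mir-275 and mir-4949, in 2 (8.7%, against 1.94%). None of these motifs contains another. With 23 windows, shares of this size rest on single sequences. The median GC content was 35.3% in these windows and 36.3% in all optimal windows. The RNA element UGUANAUA was in the sense strand of 6 of the 260 hairpins (mir-963, mir-979, mir-4908, mir-4972, mir-4979 and mir-9388). Of these, 0 had an optimal summit within 2000 bp, against 9.23% of all microRNA genes. With 6 hairpins, 0 cannot be told apart from that share.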

How the data were processed

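Per the labels' protocols and the file headers, the authors aligned to dm6 and dm3, derived each list with a control alignment, and deposited 1 peak list per replicate, 1 pooled list and 1 optimal list cut at a reproducibility threshold. Which peak caller and settings were used, and where the threshold lay, is not given in the sources used here. Only the dm6 lists were used. Peak signal (column 7) is a value deposited by the authors and served only to describe and rank peaks within a list. The authors also deposited a -log10 q-value, which was at its maximum in 97.5% of the 3970 optimal peaks. Read depth is unknown.

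Here, summits were the start plus the deposited summit offset. In the optimal list a summit within 250 bp of a stronger one was dropped, which left 3816, and likewise wherever the strongest 3816 of a replicate were used. Gene models came from Ensembl release 115 on the same assembly, and sequences from RefSeq. Transposable elements and 481 entries for mature microRNA products were set apart, so that 17423 other genes remained. All 260 hairpins matched a RefSeq hairpin by FlyBase ID and span. Distance was from the nearest edge of the hairpin (for other genes, the start). Replicate summits matched within 100 bp. Hairpins within 10000 bp of each other formed a locus, and hosts span the hairpin on its strand. Shares carry exact 95% Clopper-Pearson intervals, which cover counting error only. With 1 group of 2 samples nothing was tested; the labels do not say whether they come from separate collections beyond a biological replicate number. Steps were checked on simulated data.

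Genes were named by rule. The rule took every microRNA gene with an optimal summit within 2000 bp, with its cluster mates and most of the hosts. It also took the 5 with the strongest pooled summit within 500 bp below the optimal list, and 32 well-known microRNA genes. Hosts of other microRNA genes, seed families, hairpins with UGUANAUA, microRNA genes just outside a limit and those with a summit in 1 replicate only were named after their values had been seen. Members and lists were chosen with earlier results of these data known. Python 3.11.15, numpy 2.4.6, scipy 1.17.1 and matplotlib 3.10.9 were used.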

Additional observations from a re-analysis of the deposited data

How the results depend on the processing

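Counts of microRNA genes with an optimal summit were compared under other settings. Within 500 bp the count was 6, and it was 10 without replicate 2 and 8 without replicate 3 (the strongest 3816 summits of the remaining replicate stood in for the optimal list), 3 with the stronger 50% of optimal summits and 2 within 250 bp; the other 4 settings gave 4 to 8. All 6 genes were among the 10 and 5 among the 8. Within 2000 bp the count was 24, with 27 without replicate 2 and 29 without replicate 3, and it was 13 with the stronger 50%, 13 within 1000 bp and 79 within 5000 bp. Of the 24, 21 remained without replicate 2 and 22 without replicate 3. Loci numbered 22, against 26 without either replicate in turn and 13 with the stronger 50%. Hosts with a summit at a start numbered 41, against 46 without replicate 2, 35 without replicate 3 and 23 with the stronger 50%. A stricter list or a shorter window holds fewer summits by construction. No paired analysis was possible because both samples belong to 1 group. Counting entries of mature products as genes, a choice made after seeing the data, gave 14.1% of other genes with a summit within 500 bp in place of 14.4%. The replicate lists were cut to the length of the optimal list for these counts, and without read depth a missing summit cannot be read as absence of signal.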

Other observations

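In the strongest 3816 summits of a single replicate, a few further microRNA genes had a summit within 500 bp that the optimal summits used here lack. In replicate 2 these were mir-14 (signal 45.5, inside the hairpin), mir-34 (44, at 115 bp) and mir-4974 (47.5, inside the hairpin, in CG8671). In replicate 3 they were mir-14 (44.5, at 188 bp), mir-2496 (89.8, at 443 bp, a peak that is in the optimal list but lies within 250 bp of a stronger one), mir-4918 (58.1, at 385 bp, in tex) and mir-4962 (42.2, inside the hairpin, in Tlk). Only mir-14 was in both sets, with summits at different places.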
